A study of Mus musculus with 2 samples.

Results

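The 9 genes of the matrix metalloproteinase (MMP) family described here, Mmp2, Mmp3, Mmp8, Mmp9, Mmp12, Mmp13, Mmp14, Mmp19 and Mmp23, were followed in the single-cell RNA sequencing of the mouse abdominal aorta. They were chosen by symbol, with earlier results of these data known, and all 9 were found once each among the 33696 genes counted. The 2 groups were 5-month-old male C57BL/6J mice given normal saline (Control) and mice of the same strain, sex and age that drank water with 0.9% NaCl and 0.2% KCl and received AngII for 28 days at 1500 ng/kg/min (AngII+HS). Each group gave 1 library of the suprarenal abdominal aorta. The series' design describes pools of 5 mice per library, whereas the sample protocol names 1 mouse for the Control and 2 for AngII+HS.

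Each condition was sequenced as 1 library, so the spread between mice is unknown. No test between conditions was therefore possible, and every interval below is a 95% exact interval (Poisson for levels, binomial for shares, conditional for ratios) that covers counting error only and treats UMIs as independent, also where a few cells hold most of them. After filtering and doublet removal, 10269 Control cells with 75265697 UMIs (unique molecular identifiers, so that molecules and not PCR copies are counted) and 19734 AngII+HS cells with 80416904 UMIs were kept. Control cells were deeper, with a median of 7265 UMIs per cell against 3070. The share of cells removed by doublet score was 9.03% in the Control and 19.6% in AngII+HS. The barcode list recorded with each library was as long as the other library's matrix, and 67 barcodes were in both lists, so the lists were not joined to the counts. If the matrices themselves had been exchanged at deposit, every direction below would be reversed. In the library taken as Control, 30.4% of cells were vascular smooth muscle cells (VSMCs) and 0.964% neutrophils, against 3.62% and 23.5% in the library taken as AngII+HS.

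MMPs are zinc-dependent endopeptidases that cleave collagens, elastin, proteoglycans and other proteins outside the cell. Most are secreted as inactive proenzymes and activated by plasmin, furin-type convertases or other MMPs, and are held in check by the tissue inhibitors of metalloproteinases (TIMPs) and by Reck. In the aortic wall their substrates include the elastic lamellae of the media and the collagen of the adventitia, and elastin and collagen breakdown is a known feature of abdominal aortic aneurysm. Among the 9 genes, Mmp2 and Mmp9 encode the gelatinases, Mmp3 encodes stromelysin-1, Mmp8 and Mmp13 encode collagenases, Mmp12 encodes macrophage elastase, and Mmp14 encodes a membrane-anchored enzyme that activates the Mmp2 proenzyme. Mmp19 and Mmp23 are less studied members.

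In the GENCODE annotation of GRCm39, 4 of the 9 genes are neighbours. Mmp13, Mmp12, Mmp3 and Mmp8 lie in a run of 10 protein-coding genes on chromosome 9 that spans 427.1 kb from position 7272514 to 7699587, and all 10 of these genes are MMP genes. Mmp3 takes chr9:7445822-7455975, Mmp8 chr9:7558457-7568487, Mmp12 chr9:7344381-7369499 and Mmp13 chr9:7272514-7283331, each on the + strand. The others are apart from it: Mmp9 at chr2:164780439-164797771, Mmp23 at chr4:155735111-155738378, Mmp2 at chr8:93553902-93580049, Mmp19 at chr10:128626773-128636695 and Mmp14 at chr14:54668878-54682821. Mmp14 overlaps Gm56768 on the same strand, so reads of the pair cannot be assigned with certainty. Mmp12, Mmp2 and Mmp19 overlap genes on the opposite strand. The canonical start of Mmp9, Mmp12 and Mmp23 lies inside the span given here, which covers all transcripts of the gene.

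The promoters of 5 members are shown, since the 4 neighbours on chromosome 9 and Mmp9 were read in different cells, as described below for fibroblasts, macrophages and neutrophils. Each is the 250 bases before the start of the Ensembl canonical transcript on GRCm39, 5′ to 3′ on the gene's strand, with matches to the AP-1 motif TGANTCA and to the TATA motif TATAAA (either strand) in capitals. No AP-1 match overlapped a TATA match.
Mmp3 (chr9:7445572-7445821, + strand): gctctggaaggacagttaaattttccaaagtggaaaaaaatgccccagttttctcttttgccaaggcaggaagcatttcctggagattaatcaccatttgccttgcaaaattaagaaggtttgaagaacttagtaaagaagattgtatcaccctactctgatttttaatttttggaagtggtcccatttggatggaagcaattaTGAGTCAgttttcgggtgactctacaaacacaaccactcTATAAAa
Mmp13 (chr9:7272264-7272513, + strand): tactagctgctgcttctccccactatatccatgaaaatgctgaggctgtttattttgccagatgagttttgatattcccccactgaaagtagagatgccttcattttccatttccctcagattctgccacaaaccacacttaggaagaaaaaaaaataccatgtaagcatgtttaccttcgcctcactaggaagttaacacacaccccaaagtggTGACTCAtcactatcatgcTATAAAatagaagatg
Mmp12 (chr9:7347124-7347373, + strand): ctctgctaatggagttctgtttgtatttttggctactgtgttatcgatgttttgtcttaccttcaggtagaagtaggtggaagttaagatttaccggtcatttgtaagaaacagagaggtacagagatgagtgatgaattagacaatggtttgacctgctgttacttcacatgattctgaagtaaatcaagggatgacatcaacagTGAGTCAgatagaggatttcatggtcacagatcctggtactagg
Mmp8 (chr9:7558207-7558456, + strand): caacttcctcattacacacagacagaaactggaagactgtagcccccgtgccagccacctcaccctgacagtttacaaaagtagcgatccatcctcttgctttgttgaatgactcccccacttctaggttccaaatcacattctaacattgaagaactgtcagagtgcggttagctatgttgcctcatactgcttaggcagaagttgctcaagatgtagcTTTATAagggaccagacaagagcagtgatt
Mmp9 (chr2:164789889-164790138, + strand): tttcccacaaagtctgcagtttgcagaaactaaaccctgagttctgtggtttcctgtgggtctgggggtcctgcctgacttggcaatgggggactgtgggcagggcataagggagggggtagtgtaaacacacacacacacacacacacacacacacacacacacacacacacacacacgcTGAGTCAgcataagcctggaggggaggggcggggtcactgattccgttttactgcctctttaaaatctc
The AP-1 letters, which are their own reverse complement, were found in the promoters of 5 of 9 members (Mmp3, Mmp9, Mmp12, Mmp13 and Mmp19) and in 6.17% of 21431 promoters of the same length. They began 46 bases before the start of Mmp3, 69 before Mmp9, 44 before Mmp12, 35 before Mmp13 and 26 before Mmp19. The TATA letters were found in Mmp3, Mmp8 and Mmp13, 3 of 9 members, and in 11.94% of all promoters. The ETS letters AGGAAG were in 4 of 9 members against 28.81% of promoters, and the E-box letters CANNTG in 7 of 9 against 64.8%. Overlaps of the latter motifs with the others were not examined. These are matches of letters and no measure of binding.

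Across the whole library, 8 of the 9 genes were at least 2-fold higher in AngII+HS, a size that 20.5% of 20360 genes with at least 20 UMIs reached in that direction. None was at least 2-fold lower, against 11.7% of all genes. Since the members were chosen with earlier results of these data known, such counts here and below are a description and no test. The median log2 ratio was 2.69 over the members and 0.05 over all genes. Levels are given as CPM, a gene's summed UMIs scaled to a fixed total of UMIs. Mmp12 was at 1.16 CPM (0.926 to 1.43) in the Control and at 38.8 CPM (37.4 to 40.1) in the AngII+HS library, a 33.5-fold ratio (27.1 to 42.0). Mmp13 went from 1.78 to 42.3 CPM (23.8-fold, 20.003 to 28.5) and Mmp9 from 7.35 to 149 CPM (20.3-fold, 18.7 to 22.2). These 3 genes had the highest ratios, and their intervals lay above those of the other 6 members. The order changed with the processing. With the number of removed doublets doubled, the log2 ratio of Mmp13 was 2.56, below that of Mmp19 at 2.69. That doubling took out 24.5% of the kept AngII+HS cells and 9.92% of the kept Control cells. With every cell counted alike, Mmp9 was highest at 4.61, followed by Mmp12 at 3.19 and Mmp13 at 2.82.

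The next members were Mmp19, at 6.20 CPM in the Control and 48.9 CPM in the AngII+HS library (7.88-fold, 7.16 to 8.69), and Mmp3, at 138 and 889 CPM (6.46-fold, 6.32 to 6.59). Mmp2 was at 48.3 and 260 CPM (5.38-fold, 5.19 to 5.57). Mmp8 was at 7.57 and 27.1 CPM (3.58-fold, 3.26 to 3.93) and Mmp14 at 33.1 and 110 CPM (3.32-fold, 3.18 to 3.48), ratios whose intervals overlapped. Mmp23 differed least, at 61.4 and 88.4 CPM (1.44-fold, 1.39 to 1.49). When every cell counted alike, whatever its number of UMIs, the log2 ratio of Mmp23 was -0.34 and that of Mmp3 was 0.79, below the 2-fold line.

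**Figure D1:**
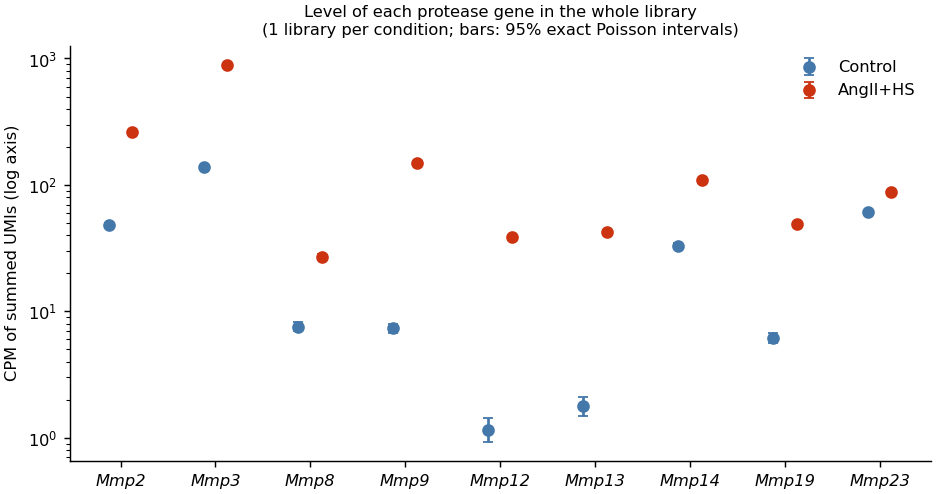
Level of each of the 9 protease genes in the whole library, in CPM of summed UMIs on a log axis, with 95% exact Poisson intervals, for the Control and the AngII+HS library (1 library each). The AngII+HS point lies above the Control point for every gene, from 1.44-fold for Mmp23 to 33.5-fold for Mmp12.

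To find the cells behind these levels, the libraries were clustered with all genes of the protease and inhibitor lists left out, which gave 24 clusters, and clusters were named from marker genes. A few clusters are called here by their leading genes. The Mylk4-led cluster (2142 Control and 187 AngII+HS cells) detected the VSMC markers but had the pericyte marker Rgs5 among its 10 leading genes. The Arg1-led cluster (41 and 2136 cells) scored highest for monocyte markers, whereas Arg1, Ccl24, Pf4 and Msr1 led it, and the 41 Control cells held 0 UMIs of Arg1. The Fgf14-led cluster (365 and 253 cells) scored highest for pericyte markers, none of which led it.

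Among the classes named by markers, the class with the highest level differed between the proteases. Fibroblasts led for Mmp2, Mmp3, Mmp14 and Mmp23 in both libraries, neutrophils for Mmp8 and Mmp9 in both, and macrophages for Mmp12 and Mmp19 in both. Mmp13 was led by macrophages in the Control and by fibroblasts in the AngII+HS library, but by macrophages in both when the number of removed doublets was doubled. The Arg1-led cluster, which is not in this order, held more Mmp19 than macrophages in either library. For Mmp19, macrophages and fibroblasts did not differ beyond counting error in the Control library (35.7 CPM, 27.7 to 45.4, and 34.3 CPM, 30.7 to 38.2) and differed little in the AngII+HS library (76.6 CPM, 71.6 to 81.9, and 70.1 CPM, 67.0 to 73.2). VSMCs led for no member, and were second for Mmp23.

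Free RNA adds UMIs to cells that do not express a gene, and T and B cells, which should lack most of these transcripts, were read as the background. In the AngII+HS library the T and B cells (2111 cells, median 2143 UMIs) held 50.7 CPM of Mmp3, 17.2 CPM of Mmp2, 9.27 CPM of Mmp9, 7.89 CPM of Mmp14 and 6.71 CPM of Mmp23, and between 0.592 and 2.56 CPM of each of the other 4 genes. In the Control library (232 cells, median 3788 UMIs) no member was above 4.16 CPM. A class is said below to exceed this level where its interval lay above that of T and B cells in that library. A level that did not exceed it is not read as expression, nor its ratio as a difference in that class.

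**Figure D2:**
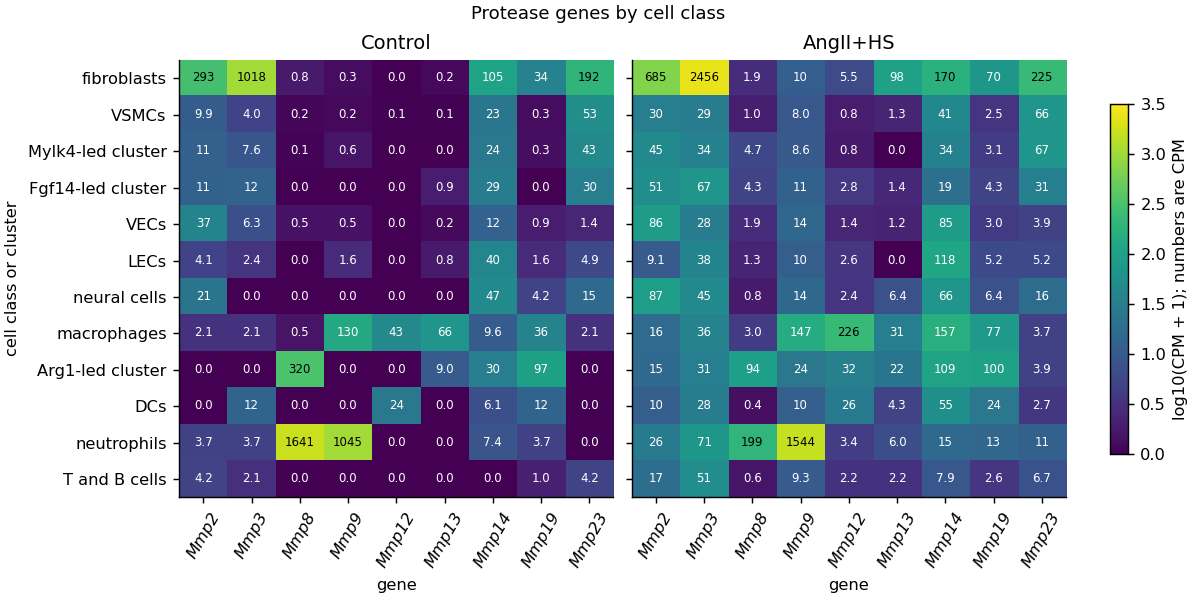
CPM of the 9 genes in 12 cell classes or clusters of the Control (left) and AngII+HS (right) library, coloured by log10(CPM + 1) with the CPM printed. Fibroblasts stand out for Mmp2, Mmp3 and Mmp23, neutrophils for Mmp8 and Mmp9 and macrophages for Mmp12, and the T and B cell row gives the level read as free RNA.

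Mmp8 and Mmp9 are stored in neutrophil granules, and in the summed neutrophils their ratios ran in opposite directions. Mmp8 was at 1641 CPM (1493 to 1801, 99 cells) in Control neutrophils and at 199 CPM (188 to 210, 4647 cells) in AngII+HS neutrophils, a log2 ratio of -3.04 (-3.20 to -2.88). Mmp9 was at 1045 CPM (927 to 1174) and at 1544 CPM (1513 to 1575), 1.48-fold higher (1.31 to 1.67). When the libraries were merged without integration, the log2 ratio of Mmp9 was -0.27, but the class then held few AngII+HS neutrophils. The cluster led by G0s2 and Mmp9 (22 Control and 4415 AngII+HS cells) scored highest for neutrophil markers and stayed unnamed, which left an Ngp-led cluster (77 and 12 cells) and a Slfn4-led cluster (0 and 221 cells). Most Control and most AngII+HS neutrophils thus sat in different clusters without integration. The log2 ratio of Mmp8 lay between -3.06 and -2.50 over the alternatives run, that one included. Mmp8 was the only member at least 2-fold lower in neutrophils, where 10.4% of 9993 genes were. In the other direction, 6 members were at least 2-fold higher there (Mmp2, Mmp3, Mmp12, Mmp13, Mmp19 and Mmp23), against 34.9% of all genes. These 6 had 0 or 1 UMIs in Control neutrophils and between 3.38 and 71.0 CPM in AngII+HS neutrophils. Of them Mmp2, Mmp3, Mmp13 and Mmp19 exceeded the T and B cell level, whereas their Control levels rest on 1 UMI or none. Mmp12, Mmp13 and Mmp23 had 0 there. With the Control set to a floor of 3 UMIs their ratios were 0.306-fold, 0.540-fold and 1.007-fold, so that their 2-fold difference was not detectable at this depth. The fibroblast markers differed between the neutrophil sums, with 162 CPM over 5 markers in the Control (1 at 0) and 1116 CPM in AngII+HS. In AngII+HS T cells they were at 643 CPM and in B cells at 714 CPM, below the neutrophils. Exceeding the T and B cell level is therefore not read as expression of Mmp2, Mmp3, Mmp13 or Mmp19 in neutrophils. The part of these markers in the ratios was not tested. The median log2 ratio in neutrophils was 1.28 over the members and 0.22 over all genes.

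After each cell was thinned to 1000 UMIs, the share of cells with a UMI also differed in opposite directions for Mmp8 and Mmp9. Thinning left out 2 Control and 842 AngII+HS neutrophils as shallower. For Mmp8 the share was 58.8% (48.3 to 68.7) in the Control and 13.5% (12.5 to 14.7) in the AngII+HS neutrophils, and without thinning 76.8% and 16.6%. For Mmp9 it was 57.7% (47.3 to 67.7) and 70.0% (68.5 to 71.4), and without thinning 78.8% and 75.3%, higher in the Control. Among thinned T and B cells of the AngII+HS library, 0.0984% held a UMI of Mmp8 and 0.738% a UMI of Mmp9. The UMIs of Mmp9 were spread over many AngII+HS neutrophils, where 884 of 4647 cells were needed to reach 50 percent of them.

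Other granule genes, chosen after their values were seen, were lower in AngII+HS neutrophils along with Mmp8. Ngp was at 622 CPM in the Control and 10.6 CPM in the AngII+HS neutrophils, Camp at 177 and 14.8 CPM, and Ltf at 177 and 40.3 CPM. Lcn2, which encodes a granule protein that binds Mmp9, was at 3581 and 1306 CPM. Mmp25, a membrane-anchored MMP of leukocytes, was at 191 CPM (143 to 251) and 32.7 CPM (28.4 to 37.5). The markers used for naming were lower too, with 126273 CPM over the 5 neutrophil markers in the Control and 45527 CPM in the AngII+HS cells, and the median depth was 2739 against 1268 UMIs. The part of these differences in the result for Mmp8 was not tested.

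Within AngII+HS neutrophils, Mmp8 was alike in the Retnlg-led cluster (198 CPM, 187 to 210) and in the Slfn4-led cluster of interferon-response genes (217 CPM, 168 to 276). Mmp9 was lower in the Slfn4-led cluster, at 913 CPM (810 to 1026) against 1577 CPM (1545 to 1609). Outside neutrophils, Mmp8 was present in the Arg1-led cluster, at 320 CPM (262 to 387) in the 41 Control cells and at 93.8 CPM (87.5 to 100.4) in the AngII+HS cells. In the Control, 28 of these 41 cells held a UMI of Mmp8, and their Ly6c2 level, a monocyte marker, was 685 CPM against 137 CPM in AngII+HS. The neutrophil markers moved the same way in this cluster, with 941 CPM over 5 markers in the Control (1 at 0) and 228 CPM in AngII+HS, S100a8 among them at 706 and 88.0 CPM, and their part was not tested. This cluster held 37.6% of all Mmp8 UMIs of the AngII+HS library, and neutrophils 56.7%.

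Macrophages held most Mmp12, at 43.2 CPM (34.3 to 53.7, 474 cells) in the Control and 226 CPM (218 to 235, 2430 cells) in the AngII+HS library, 5.24-fold higher (4.20 to 6.62). They held 93.1% of the gene's UMIs in the Control and 82.1% in the AngII+HS library. In AngII+HS macrophages, 6 members were at least 2-fold higher (Mmp2, Mmp3, Mmp8, Mmp12, Mmp14 and Mmp19), against 14.8% of 12815 genes, and Mmp13 was at least 2-fold lower, against 15.3%. The median log2 ratio was 1.93 over the members and -0.04 over all genes. Of the 6, Mmp2 (15.7 CPM) and Mmp3 (36.1 CPM) did not exceed the T and B cell level, and Mmp8 rested on 1 Control UMI (5.64-fold, 0.946 to 229). In the same sums, fibroblast markers were at 123 CPM in the Control and 458 CPM in AngII+HS, monocyte markers at 68.3 and 324 CPM, and neutrophil markers at 93.3 and 287 CPM, and their part was not tested. Mmp14 was at 9.60 CPM (5.69 to 15.2) and 157 CPM (149 to 164), 16.3-fold higher (10.3 to 27.6), the highest ratio of the 4 that did exceed it. Without integration, an Ms4a7-led macrophage cluster held 64 Control and 1934 AngII+HS cells. A Slc39a12-led one, with Cd163 among its leading genes, held 311 and 361. The make-up of the class thus differed between the libraries. Its part in the macrophage results here and below was not tested.

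The UMIs of Mmp12 sat in few cells. In the Control, 10 of 474 macrophages held a UMI of it and 2 of them held 77.8% of its UMIs. In the AngII+HS library, 258 of 2430 macrophages held a UMI, and 64 cells with at least 10 UMIs held 78.1%. In cells thinned to 1000 UMIs the share with a UMI was 1.69% (0.684 to 3.46) in the Control and 5.83% (4.91 to 6.87) in the AngII+HS library, against 0.197% of AngII+HS T and B cells. Without the cells of at least 10 UMIs the levels were 9.63 and 52.1 CPM. At the finer clustering resolution of 1.2, Mmp12 in AngII+HS was at 327 CPM (313 to 341) in the Ms4a7-led macrophages, whose leading genes include Trem2, with 196 CPM (154 to 246) in the Control. In the Cd163-led cluster, which the marker rule left unnamed, it was at 60.4 CPM (53.0 to 68.6) in AngII+HS and 4.18 CPM (1.53 to 9.09) in the Control. At that resolution, where the Cd163-led cells are not counted as macrophages, the log2 ratio of Mmp12 was 0.80 and no longer past 2-fold.

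Mmp9 in macrophages looked equal by level, at 130 CPM (114 to 147) in the Control and 147 CPM (140 to 154) in the AngII+HS library, but was spread over cells in different ways. In the Control, 114 of 474 macrophages (24.1%) held a UMI, and no cell held more than 10. In the AngII+HS library, 123 of 2430 (5.06%) held a UMI, and 13 cells held 89.5% of the 1664 UMIs, with up to 239 in a single cell. Without cells of at least 10 UMIs, the level was 125 CPM in the Control and 15.8 CPM in the AngII+HS macrophages. After thinning, the share with a UMI was 11.1% (8.27 to 14.6) in the Control and 1.86% (1.35 to 2.49) in the AngII+HS library, against 0.738% of AngII+HS T and B cells. With the number of removed doublets doubled, the log2 ratio of Mmp9 was -3.33, and with every cell counted alike it was -1.48.

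Those 13 cells, which were chosen by their Mmp9 count and so give a description with no test, also held genes known from osteoclasts, the bone-resorbing relatives of macrophages. Ctsk, which encodes the collagen-cleaving protease cathepsin K, was at 11930 CPM in them against 27.9 CPM in the other AngII+HS macrophages. Acp5, which encodes tartrate-resistant acid phosphatase, was at 8542 and 176 CPM, Atp6v0d2 at 1385 and 40.8 CPM, Ocstamp at 238 and 7.52 CPM, and Mmp14 at 547 and 147 CPM. C1qa was at 11.2 CPM in them and at 2840 CPM in the others, and Cd163 had 0 UMIs. Their depth was high, with a median of 22220 UMIs. All 13 would be removed if the number of doublets removed were doubled, against 24.5% of all kept AngII+HS cells. The neutrophil gene S100a8 was at 14.9 CPM in them against 100.3 CPM in the others, and Retnlg at 0 against 10.6 CPM. These genes, too, were chosen after their values were seen.

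Mmp19 was 2.14-fold higher (1.67 to 2.79) in AngII+HS macrophages and, in the Arg1-led cluster, was the same within counting error in both libraries, at 96.5 CPM (66.008 to 136) and 99.7 CPM (93.2 to 107). Mmp13 in macrophages was at 66.1 CPM (55.0 to 78.8) in the Control and 31.3 CPM (28.1 to 34.7) in the AngII+HS library. This difference rested on 4 Control cells that held 70.2% of its 124 UMIs: without cells of at least 10 UMIs the levels were 19.9 and 21.4 CPM. The thinned shares of 2.66% (1.34 to 4.72) and 1.81% (1.31 to 2.45) overlapped in their intervals.

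**Figure D3:**
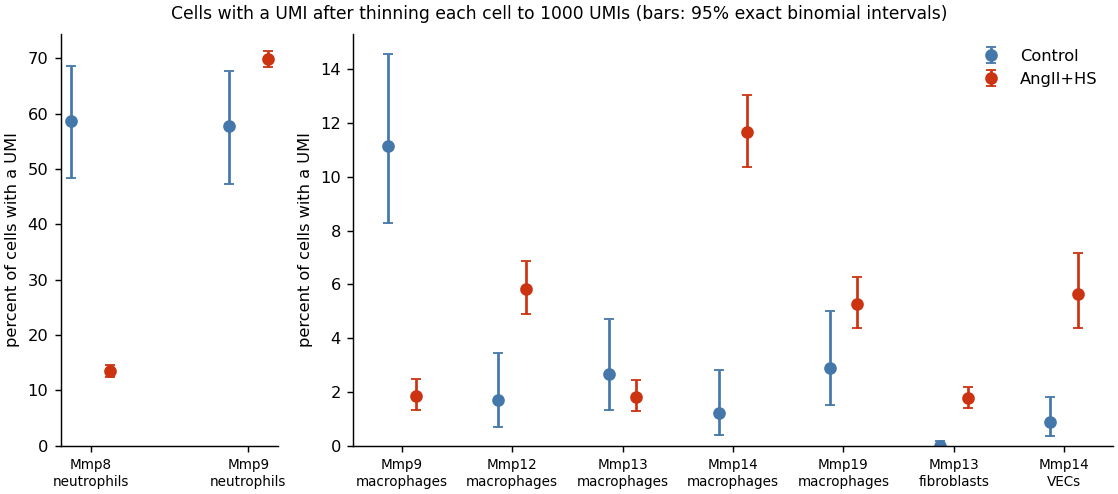
Percent of cells with a UMI of each gene after every cell was thinned to 1000 UMIs, with 95% exact binomial intervals, in neutrophils (left) and in macrophages, fibroblasts and VECs (right). Mmp8 in neutrophils and Mmp9 in macrophages are lower in AngII+HS (13.5% against 58.8%, and 1.86% against 11.1%), while Mmp14 in macrophages is higher (11.7% against 1.21%).

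Fibroblasts held 96.6% of all Mmp3 UMIs in the Control and 97.0% in the AngII+HS library. Mmp3 was at 1018 CPM (998 to 1038, 2611 cells) and 2456 CPM (2438 to 2475, 4737 cells), 2.41-fold higher (2.36 to 2.46). Mmp2 was at 293 CPM (282 to 304) and 685 CPM (676 to 695), 2.34-fold higher (2.25 to 2.43). In AngII+HS fibroblasts, 7 members were at least 2-fold higher, where 8.03% of 15884 genes were, and none at least 2-fold lower, against 8.11%. Of the 7, Mmp8 (1.91 CPM) and Mmp9 (10.2 CPM) did not exceed the T and B cell level, whereas Mmp2, Mmp3, Mmp12, Mmp13 and Mmp19 did. The median log2 ratio was 1.23 over the members and -0.15 over all genes. Mmp12 had 0 UMIs in Control fibroblasts and 5.45 CPM in AngII+HS, against 2.17 CPM (1.08 to 3.88) in AngII+HS T and B cells. With the Control set to a floor of 3 UMIs its ratio was 17.9-fold, and the lower end of its exact interval was 14.4-fold. All AngII+HS fibroblasts together held 154 UMIs of Mmp12, whereas a single AngII+HS macrophage held up to 241. How these UMIs were spread over the fibroblasts was not read, and the part of mixed cells was not tested. When every cell counted alike, the log2 ratio of Mmp3 was 0.78 and 4 members passed 2-fold. The share of all genes at that weight was not computed. The neutrophil markers moved with the library in fibroblasts too, from 8.75 to 186 CPM over 5 markers, and the macrophage markers from 18.5 to 64.5 CPM over 6, and their part was not tested. Fibroblasts were deeper in AngII+HS, with a median of 5114 against 3187 UMIs. In cells thinned to 1000 UMIs, the share with a UMI of Mmp3 was 31.6% (29.7 to 33.6) in the Control and 47.0% (45.6 to 48.5) in AngII+HS (41.9% and 65.6% without thinning), and that of Mmp2 was 23.0% (21.3 to 24.9) and 39.2% (37.7 to 40.6) (49.1% and 70.9%). Fibroblasts with at least 10 UMIs of Mmp3 numbered 307 in the Control and 1405 in AngII+HS, and the other fibroblasts were at 312 and 343 CPM. This cut was made on the Mmp3 count itself, at unequal depth. It holds the other cells under 10 UMIs in both libraries, so their likeness is partly built in.

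The difference in Mmp3 was not shared by all fibroblast clusters. In the Sfrp4-led cluster, whose leading genes include Clec3b and the adventitial marker Pi16, Mmp3 was at 543 CPM (522 to 565) in the Control and 3562 CPM (3526 to 3598) in the AngII+HS library. In the Dio2-led cluster it was at 1273 CPM (1240 to 1307) and 1765 CPM (1736 to 1794). In the Comp-led cluster it was lower in AngII+HS, at 1918 CPM (1837 to 2002) and 1450 CPM (1422 to 1479). In these integrated clusters the order was thus reversed, with the Sfrp4-led cluster lowest in the Control and highest in AngII+HS. Without integration, a cluster led by Comp and Sfrp4 held 17 Control and 2468 AngII+HS cells. An Rbp4-led cluster held 20 and 1114, an Hhip-led one 1630 and 289, and a Clec3b-led one 868 and 663. Most fibroblasts of the libraries thus sat in different clusters. Whether the clusters compared here and below pair the same cells was not tested.

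Mmp2 divided the clusters differently. It was higher in the AngII+HS library in the Sfrp4-led cluster (277 CPM, 262 to 293, and 999 CPM, 980 to 1018) and in the Comp-led cluster (317 CPM, 284 to 352, and 759 CPM, 738 to 780). In the Dio2-led cluster it was lower, at 302 CPM (286 to 319) and 207 CPM (197 to 217). At resolution 1.2 the Sfrp4-led cells divided into a Saa3-led and a Clec3b-led cluster. In the Saa3-led cluster, Mmp3 reached 4816 CPM (4764 to 4868) and Mmp2 1266 CPM (1240 to 1294) in AngII+HS, against 800.04 CPM (739 to 865) and 475 CPM (428 to 526) in the Control. In the Clec3b-led cluster they reached 1238 CPM (1203 to 1274) and 505 CPM (483 to 528), against 490 and 235 CPM.

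Mmp13, the collagenase known from cartilage and bone, was nearly absent from Control fibroblasts, with 2 UMIs in a single cell of 2611 (0.204 CPM), and was at 98.2 CPM (94.6 to 102) in AngII+HS fibroblasts. With 2 Control UMIs the ratio was 483-fold with an interval of 133 to 3987. The UMIs sat in few cells. A UMI was found in 192 of 4737 cells, and 65 cells with at least 10 UMIs held 89.4% of the 2773 UMIs, up to 178 in a cell. Without those cells the level was 10.7 CPM, and with the number of removed doublets doubled the log2 ratio was 5.83 in place of 8.91. Of these 65 cells, 36 were in the Prg4-led cluster and 27 in the Sfrp4-led cluster. In AngII+HS, Mmp13 was at 606 CPM (578 to 634) in the Prg4-led cluster, 87.0 CPM (81.5 to 92.9) in the Sfrp4-led cluster, and 3.60 and 5.64 CPM in the Dio2-led and Comp-led clusters.

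The Prg4-led cluster was found almost only in AngII+HS (2 Control and 197 AngII+HS cells), so that the library and the cluster cannot be told apart. Its leading genes were Prg4, Timp1, Cxcl5, Ereg, Grem1 and Il11, beside Mmp13. In AngII+HS it also held the highest Mmp14 level of the fibroblast clusters, at 317 CPM (297 to 337), and the lowest Mmp23 level, at 87.4 CPM (77.1 to 98.7). Its cells were deep, with a median of 14460 UMIs, and 191 of the 197 would be removed if the number of doublets removed were doubled. The same step would remove 30.2% of the AngII+HS cells of the Sfrp4-led cluster and 24.5% of all kept AngII+HS cells. The markers of other cell types were not higher in it than in the Sfrp4-led cluster for VECs (12.8 against 51.5 CPM over 5 markers), macrophages (48.3 against 61.3 CPM over 6) and neutrophils (139 against 213 CPM over 5), and were higher for monocytes (1076 against 881 CPM over 5), VSMCs (556 against 418 CPM over 5), dendritic cells (39.2 against 25.9 CPM over 6) and neural cells (22.6 against 17.8 CPM over 5). For the other lists, both sums were under 20 CPM, except those for pericytes (193 against 535 CPM) and erythroid cells (14.5 against 82.3 CPM), which were lower in the Prg4-led cluster. Without this cluster, Mmp14 was led by macrophages and no longer by fibroblasts in AngII+HS.

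**Figure D4:**
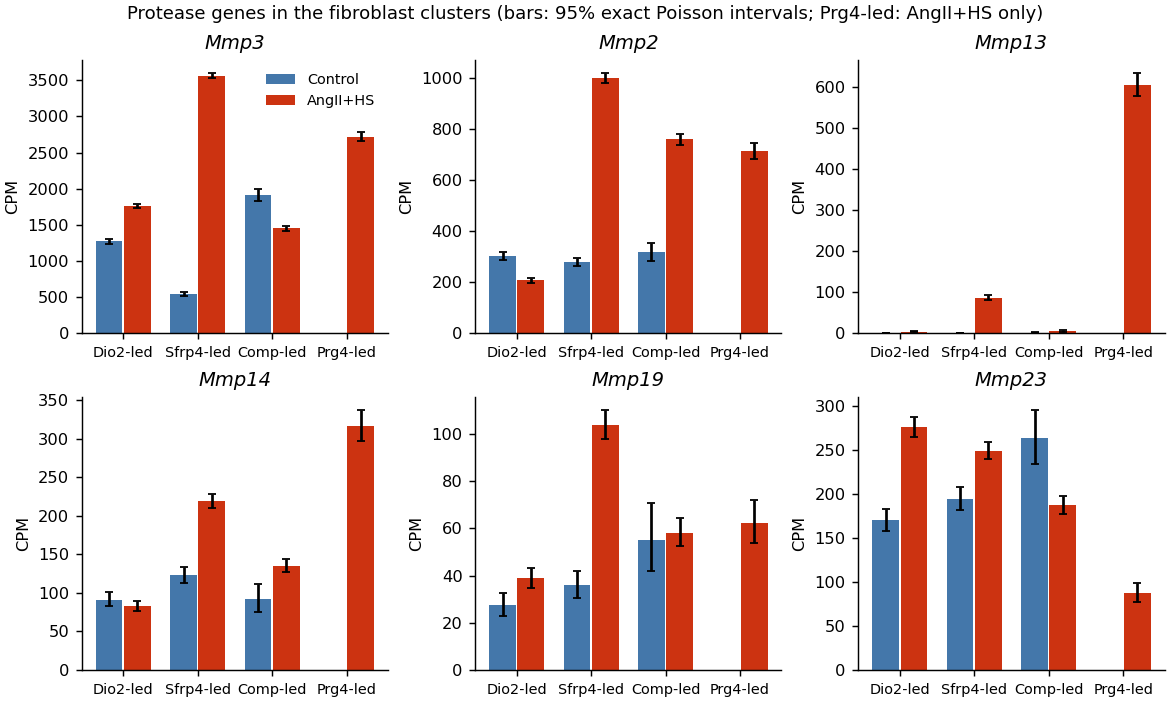
CPM of 6 protease genes in the 4 fibroblast clusters, each named by its leading gene, in the Control and the AngII+HS library, with 95% exact Poisson intervals. The Prg4-led cluster is shown for AngII+HS only, since it held 2 Control cells. Mmp3 is lowest in the Sfrp4-led cluster of the Control and highest there in AngII+HS, and Mmp13 is highest in the Prg4-led cluster.

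Mmp14 was the most widely shared member. In fibroblasts it was at 105 CPM (99.0 to 112) and 170 CPM (165 to 175), a 1.62-fold ratio. Beside fibroblasts and macrophages, it was read in vascular endothelial cells (VECs), lymphatic endothelial cells (LECs), neural cells and VSMCs. It was also read in the Arg1-led cluster, at 30.2 CPM in the Control and 109 CPM in AngII+HS, and in AngII+HS dendritic cells at 54.6 CPM. In VECs it was at 11.6 CPM (8.61 to 15.3, 837 cells) in the Control and 85.1 CPM (78.1 to 92.5, 1231 cells) in AngII+HS, 7.33-fold higher (5.48 to 10.0). At resolution 1.2 it was at 8.81 CPM (3.802 to 17.4) and 144 CPM (129 to 160) in the VEC cluster led by Selp and Ackr1, genes of venular endothelium, and at 13.0 CPM (9.01 to 18.2) and 60.8 CPM (51.2 to 71.6) in the one led by Cytl1 and Gja5, the latter an arterial gene. In LECs it was at 39.7 CPM (29.4 to 52.5) and 118 CPM (94.8 to 145), and in VSMCs at 22.7 CPM (21.1 to 24.4) and 41.4 CPM (36.4 to 46.9).

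In VECs, 6 members had at least 20 UMIs, and all 6 were at least 2-fold higher in AngII+HS, against 8.45% of 13213 genes, and none at least 2-fold lower, against 5.74%. The median log2 ratio was 1.85 over the 6 and 0.04 over all genes. Only Mmp2 and Mmp14 exceeded the T and B cell level. Markers of other cell types were higher in AngII+HS VECs as well, with fibroblast markers at 213 and 602 CPM, neutrophil markers at 11.1 and 198 CPM and macrophage markers at 20.6 and 70.8 CPM, and their part was not tested. Mmp2 in VECs was at 37.4 CPM (31.8 to 43.6) and 85.8 CPM (78.8 to 93.3), and came from the Cytl1-led cluster, which was at 49.8 CPM (41.6 to 59.1) and 211 CPM (193 to 231). In the Fabp4-led VECs it was at 18.3 CPM (12.4 to 25.9) and 14.2 CPM (10.8 to 18.3), whose intervals overlapped. The Cytl1-led cluster held 496 Control and 412 AngII+HS cells, and the Fabp4-led cluster 341 and 819. The make-up of the VECs thus differed between the libraries. Its part in the results for the VEC class above and below was not tested.

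In VSMCs, 4 of 6 members with enough UMIs were at least 2-fold higher (Mmp2, Mmp3, Mmp9 and Mmp19), against 8.01% of 14698 genes, and none at least 2-fold lower, against 8.0%. The median log2 ratio was 2.24 over the 6 members and 0.02 over all genes. Of these only Mmp2 exceeded the T and B cell level, and only in AngII+HS, at 30.4 CPM (26.2 to 35.2, 714 cells). Its Control level of 9.89 CPM (8.83 to 11.1, 3126 cells) did not exceed that background. With free RNA subtracted, for which the shares of all genes were not computed, 1 member was at least 2-fold higher in VSMCs. Another 2 (Mmp3 and Mmp9) counted as at least 2-fold lower. Their AngII+HS levels there (29.1 and 7.98 CPM) lay under those of T and B cells (50.7 and 9.27 CPM). Nothing was left of them after the subtraction, so they are not read as decreases. Markers of other cell types were also higher in AngII+HS VSMCs, with fibroblast markers at 1555 and 3499 CPM, neutrophil markers at 5.77 and 202 CPM and macrophage markers at 10.3 and 49.6 CPM, and their part was not tested. The class held a Sost-led cluster (2960 Control and 493 AngII+HS cells) and a Pln-led cluster (166 and 221). Without integration, a Mylk4-led VSMC cluster held 4827 and 111 cells, an Igfbp2-led one 472 and 681, and an Erbb4-led one 368 and 222. The make-up of the VSMCs thus differed between the libraries. Its part in the results for the VSMC class above and below was not tested. The member with the highest VSMC level was Mmp23, at 53.0 CPM (50.5 to 55.6) and 66.4 CPM (60.0 to 73.2), 1.25-fold higher (1.12 to 1.40). VSMCs and the Mylk4-led cluster together held most Mmp23 UMIs of the Control library (36.4% and 21.5%), with 40.8% in fibroblasts. In AngII+HS they held 5.62% and 1.21%, and fibroblasts 89.5%. Of all UMIs, VSMCs, the Mylk4-led cluster and fibroblasts held 42.2%, 30.4% and 13.1% in the Control, and 7.48%, 1.59% and 35.1% in AngII+HS. The level in fibroblasts was 192 CPM (183 to 200) and 225 CPM (220 to 231).

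**Figure D5:**
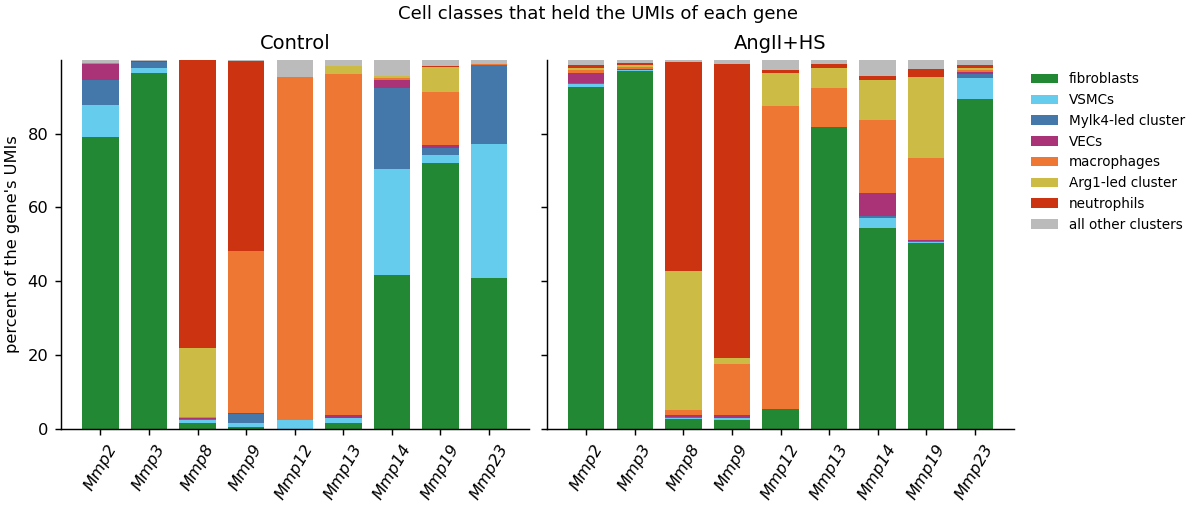
Percent of the UMIs of each gene held by each cell class or cluster in the Control (left) and AngII+HS (right) library. Fibroblasts held most UMIs of Mmp2 and Mmp3 in both libraries. Most Mmp13 UMIs were in macrophages in the Control (92.5%) and in fibroblasts in AngII+HS (81.5%). By level, macrophages led for Mmp13 in AngII+HS with the number of removed doublets doubled. The share of VSMCs in Mmp14 and Mmp23 was smaller in AngII+HS, as was their share of all UMIs (42.2% in the Control and 7.48%).

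Since the make-up of the libraries differed, each whole-library level was also computed with the class shares of UMIs of one library and the class levels of the other. With the AngII+HS shares and the Control levels, Mmp8 would be at 162 CPM, 21.4-fold the Control level, whereas 27.1 CPM was measured. With the Control shares and the AngII+HS levels it would be at 3.51 CPM, below the Control. Mmp9 would be 13.5-fold higher by the shares alone and 2.46-fold higher by the levels alone. For Mmp3 both parts were alike (2.62-fold and 2.53-fold), as they were for Mmp2 (2.24-fold and 2.55-fold) and Mmp12 (5.94-fold and 6.37-fold). This is arithmetic on the class sums, in which the clusters inside a class are not separated. Free RNA was not subtracted, so class levels that did not exceed the T and B cell level entered too. For Mmp9 these include AngII+HS VSMCs (7.98 CPM) and the Mylk4-led cluster (8.58 CPM), which held 42.2% and 30.4% of Control UMIs. The part of free RNA in the folds by levels was not tested.

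Among 14 other MMP genes, 9 had at least 20 UMIs in the whole library. Of these 9, 2 were at least 2-fold higher, Mmp10 (12.0-fold, 4.88 to 38.1) and Mmp27 (3.26-fold, 2.198 to 4.96). That is near the share over all genes of 20.5%. Another 2, Mmp16 and Mmp17, were at least 2-fold lower, against 11.7% of all genes. Mmp16 was at 27.9 and 11.7 CPM, and Mmp17 at 31.8 and 8.74 CPM. Within VSMCs, Mmp16 was at 25.6 and 18.3 CPM and Mmp17 at 42.1 and 52.1 CPM. All 5 inhibitors were measured, of which 1 was at least 2-fold higher (20.5% of all genes) and 2 at least 2-fold lower (11.7%). Timp1 was at 38.3 CPM in the Control and 607 CPM in the AngII+HS library (15.8-fold, 15.3 to 16.5), while Timp4 (71.3 and 13.5 CPM) and the membrane-anchored inhibitor Reck (55.7 and 25.4 CPM) were at least 2-fold lower. Timp2 (685 and 795 CPM) and Timp3 (1375 and 838 CPM), both more abundant than Timp1 in either library, did not reach 2-fold.

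Within classes, the ratio of Timp1 was at least 2-fold in each of the 5 classes compared, but is not read as a difference in macrophages or neutrophils. In fibroblasts it was at 232 CPM (222 to 242) and 1575 CPM (1560 to 1590), 6.79-fold higher (6.51 to 7.09), in VECs at 10.4 and 116 CPM, and in VSMCs at 10.3 and 142 CPM, with 38.5 CPM in AngII+HS T and B cells. In macrophages it reached 39.6 CPM (36.03 to 43.5) in AngII+HS, which did not exceed that background. In neutrophils it reached 56.5 CPM (50.8 to 62.8) in AngII+HS, with 1 Control UMI (15.4-fold, 2.74 to 608). Fibroblast markers were also higher in these neutrophils than in T and B cells, as given above. Reck was lower in VECs (70.3 CPM, 62.6 to 78.7, and 28.5 CPM, 24.5 to 32.9) and alike in VSMCs (56.1 CPM, 53.5 to 58.8, and 55.9 CPM, 50.1 to 62.2). Timp3 in VECs was at 2303 and 1149 CPM, and in fibroblasts at 1624 and 1569 CPM. Reck and Timp3 were not read in the single VEC clusters, and the part of the VEC make-up was not tested. Of 10 activators and partners, 7 were at least 2-fold higher in the whole library, against 20.5% of all genes. None was at least 2-fold lower there, against 11.7%. In fibroblasts 1 of 8 with enough UMIs was at least 2-fold higher (8.03% of all genes), and in VSMCs 4 of 8 (8.01%). In VECs it was 2 of 8 (8.45%), in macrophages 3 of 10 (14.8%) and in neutrophils 4 of 8 (34.9%). The 3 in macrophages were Elane, Ctsg and Lcn2, with 1, 0 and 1 Control UMIs. The 4 in neutrophils were Plau, Plat, Lrp1 and Bsg, with 0, 0, 1 and 12 Control UMIs. With the Control set to a floor of 3 UMIs, the ratio of Plat there was 1.60-fold, so that its 2-fold difference was not detectable at this depth. These counts of partners were not limited to levels that exceeded the T and B cell level. In AngII+HS, Lcn2 was at 10.7 CPM in macrophages and 7.89 CPM in T and B cells. Bsg was at 109 CPM in neutrophils and 112 CPM in T and B cells. Neither exceeded that level, so these 2 ratios are not read as differences in those classes. At least 2-fold lower in a class was only Lcn2, in neutrophils (10.4% of all genes). Plaur, the receptor of urokinase, was at 49.0 and 197 CPM, Cd44, a docking site for Mmp9, at 160 and 777 CPM, and Furin, which activates the Mmp14 proenzyme, at 59.5 and 121 CPM.

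The genes whose pattern was most like that of each member were ranked by Pearson's r of log2(CPM + 1) over 39 cluster and library sums, which share the libraries and their depth, among 14584 genes. Mmp3 was closest to Fbln1 (r = 0.938), Lum and Cpxm1, Mmp2 to Ecrg4 (0.864), Cpxm1 and Lum, and Mmp23 to Col6a2 (0.941), Sox9 and Pcolce. Mmp9 was closest to Csf3r (0.966), Clec4d and Igsf6, and Mmp8 to Gm5150 (0.944), Cd177 and A530064D06Rik. Mmp12 was closest to Dppa3 (0.9), Gdf3 and Tnip3, and Mmp19 to Hexa (0.856), Gm31522 and Ccl7. Mmp14 was closest to Gm56768 (0.875), the gene it overlaps, Slc39a1 and Ctsl. The lowest likeness was that of Mmp13 to Serpinb2 (0.762), Nt5dc2 and Ccl8.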

How the data were processed

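Suprarenal abdominal aortas of Control and AngII+HS mice were dissociated and sequenced by the authors with 10x Genomics 3′ chemistry. The deposited matrices hold raw UMI counts per gene and cell barcode, made by the authors with Cell Ranger (8.0.1 per the file headers, another version in the study's methods); the methods give GRCm39, the labels mm10. Barcodes were retained from 500 UMIs and 200 genes upward if mitochondrial genes held less than 20% of UMIs, and the cells with the highest Scrublet scores (scanpy 1.11.5) were removed at 0.8% per 1000 cells. The libraries were integrated with Seurat 5.3.0 in R 4.3.3 on 1990 variable genes, from which 10 protease genes had been removed, with 30 components and resolution 0.8. Clusters were named by marker genes. UMIs were summed per library and cell class, divided by the class total (CPM), and compared as ratios with exact intervals (scipy 1.17.1). The code was tested on simulated independent Poisson counts. These do not hold UMIs gathered in few cells, so the intervals were not checked for that setting. Genes with at least 20 UMIs over both libraries and at least a 2-fold ratio were counted as higher or lower.

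Total UMIs of retained cells were 75265697 (Control) and 80416904 (AngII+HS). All 9 members were named, with the genes of fixed lists of other MMP genes, inhibitors and partners that had at least 20 UMIs, the 3 genes most like each member (of those with at least 200 UMIs), and the leading genes of clusters. The members and lists were chosen with earlier results of these data known. Companion genes of neutrophils, of the Arg1-led cluster and of cells with at least 10 UMIs of a member were chosen after their values were seen. Promoters were read from GRCm39. Alternatives covered doublet removal, cell filters (1000 UMIs, 500 genes, 10% mitochondrial), TMM factors (edgeR 4.0.16), equal weight per cell, clustering (merging, resolutions 0.4 and 1.2, protease genes kept), subtraction of free RNA, thinning to 1000 UMIs and minima of 1 and 100 UMIs. Another 4 were added after seeing the data: the Mylk4-led cluster as VSMCs, the Arg1-led cluster as macrophages, fibroblasts without the Prg4-led cluster, and classes without cells of at least 10 UMIs of the member.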

Additional observations from a re-analysis of the deposited data

Results flagged for a closer look

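For 2 members the difference between the libraries ran in opposite directions in a pair of cell classes, with 1 library per condition, so the difference between classes was not tested. Mmp8 had a log2 ratio (AngII+HS over Control) of -3.04 in neutrophils and 1.23 in fibroblasts, where its AngII+HS level of 1.91 CPM did not exceed that of T and B cells by more than counting error. Mmp13 had a log2 ratio of -1.08 in macrophages, which rested on 4 Control cells, and of 8.91 in fibroblasts, where the Control held 2 UMIs.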

How the results depend on the processing

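No paired analysis was possible because each condition has 1 library. The figures here are log2 ratios of the whole library unless counts are named. Without doublet removal, they were 2.50 for Mmp2, 2.75 for Mmp3, 4.20 for Mmp9, 4.38 for Mmp12 and 1.85 for Mmp14. With the number of removed doublets doubled, they were 2.01 for Mmp2, 2.04 for Mmp3, 4.18 for Mmp9, 2.56 for Mmp13, 1.46 for Mmp14, 2.69 for Mmp19 and 0.40 for Mmp23. The stricter cell filter gave 2.76 for Mmp3 and 4.22 for Mmp9, and CPM without mitochondrial genes gave 2.65 for Mmp3. TMM factors gave 2.36 for Mmp2, 2.62 for Mmp3, 1.66 for Mmp14 and 0.46 for Mmp23. Equal weight per cell gave 1.003 for Mmp2, 0.79 for Mmp3, 4.61 for Mmp9, 3.19 for Mmp12, 2.82 for Mmp13, 1.04 for Mmp14, 1.79 for Mmp19 and -0.34 for Mmp23. Under these alternatives 27 library ratios moved by more than counting error and 27 did not, and the cause was not tested.

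The shares of all genes past 2-fold were not computed under the alternatives, so the member counts in this paragraph stand without them. The count of members at least 2-fold higher was 4 in fibroblasts with equal weight per cell. In VSMCs it was 8 without doublet removal and 1 with free RNA subtracted. With a minimum of 1 UMI it was 7 there, and with a minimum of 100 UMIs it was 2. With free RNA subtracted 2 members, Mmp3 and Mmp9, counted as at least 2-fold lower in VSMCs. Their AngII+HS levels lay under the T and B cell level, so nothing was left of them. In macrophages 0 members were at least 2-fold lower without doublet removal, with TMM factors, at resolution 0.4 and with the protease genes kept. With free RNA subtracted 2 were, Mmp13 and Mmp3, of which Mmp3 lay under the T and B cell level in AngII+HS. In neutrophils 1 member was at least 2-fold higher when the libraries were merged without integration, where the cluster with 4415 AngII+HS neutrophils stayed unnamed and out of the class, and 2 with a minimum of 100 UMIs. Fewer genes pass the higher minimum by construction. Apart from the levels under that of T and B cells, the other causes were not tested. Among class ratios past 2-fold, 2 changed sign: Mmp8 in macrophages when the Arg1-led cluster was counted with them (log2 ratio -0.19) and Mmp13 in macrophages without cells of at least 10 UMIs (0.10). Class ratios under 2-fold changed sign too: Mmp9 in macrophages with doubled doublet removal (-3.33), equal weight per cell (-1.48), the Arg1-led cluster counted with them (-0.24) and without cells of at least 10 UMIs (-2.98), Mmp9 in neutrophils when merged (-0.27), and Mmp14 in neutrophils with free RNA subtracted (-0.12). The other class ratios with UMIs in both libraries kept their sign under the alternatives that gave a value. The leading class of Mmp13 in AngII+HS was macrophages with doubled doublet removal, that of Mmp14 in AngII+HS was macrophages at resolution 1.2 and without the Prg4-led cluster, and that of Mmp19 moved between macrophages and fibroblasts in 3 alternatives. Depth limits the Control neutrophils (99 cells) and the Arg1-led cluster (41 Control cells) most.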
